A study of Rattus norvegicus with 6 samples.

Results

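The organic ion and drug transporters of the kidney were examined as 37 genes, listed by name: the SLC22 and SLCO carriers, the MATE exchangers (SLC47), the ABC drug pumps, the sodium-dicarboxylate and sulfate carriers, and a small number of related carriers. All 37 had a probe on the arrays. For each gene the brightest probe was used, and a gene counted as measured where that probe was clearly brighter than background on 3 or more of the 6 arrays. By this rule 33 of the 37 genes were measured. They are 33 of 27506 genes tested, of which 11572 had a gene symbol and the rest were unnamed probes grouped by accession. Each share of all genes tested below is over both kinds, whereas every member had a symbol. The tissue was renal cortex from 6 Sprague-Dawley rats, all male and bought at 5 weeks of age, all on the same basal diet. For 4 weeks, 3 rats were given water and the other 3 potassium bromate at 100 mg/kg/day, and each animal gave 1 single-colour array. The labels name no genetic change, and the sources used here do not give the route of administration. Potassium bromate is an oxidising salt that is toxic to the kidney, and the comparison asks how the cortex of treated rats differed from that of water-treated rats.

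Proximal tubule cells clear drugs, toxins and metabolites from blood into urine in stages. Carriers on the blood side, such as the organic anion transporters OAT1 and OAT3 and the organic cation transporter OCT2, bring solutes into the cell. The organic anion transporters pay for this by exchanging dicarboxylates, which a sodium-coupled carrier on the same side supplies. Pumps and exchangers on the urine side, such as MRP2, MRP4, BCRP, P-glycoprotein and MATE1, then move the solutes out.

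Each level below is a log2 signal minus the log2 of its array's 75th percentile, listed for water replicates 1, 2 and 3 and then bromate replicates 1, 2 and 3. Differences are bromate minus water on the log2 scale ± standard error (n = 3 per group). A gene was called higher or lower at a Benjamini-Hochberg adjusted p under 0.05 by limma over all genes tested, and each adjusted p below is from that fit, or for a gene's other probes from the same fit over all probes. Levels of different genes come from different probes and cannot be set against each other. The labels call the animals biological replicates, and their number limits the precision of every value. Of the 61537 probes, between 35621 and 38801 (57.9% to 63.1%) were well above background on an array. Water replicate 1 had a slide to itself, whereas the remaining 5 arrays were on 1 slide.

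The transporters moved in both directions, with 4 of the 5 rises among the ABC pumps and 8 of the 9 falls among the SLC carriers. The ABC pumps were 8 of the 33 measured genes and the SLC carriers, which made up most of the list, were the rest. Of the 33 measured genes, 5 rose (15.2%, against 6.87% of all genes tested) and 9 fell (27.3%, against 7.59% of all genes tested). The other 19 were not called. Slco1a4, counted among the falls, passed the filter through its water arrays alone, and its call is no support for the count. Of the 32 members well above background on all 6 arrays, 5 rose and 8 fell in this same fit. In a fit over only the genes that pass that filter, 5 rose and 10 fell. Of all genes in that fit, 8.06% rose and 8.94% fell. The rises were in the pump genes Abcb1b, Abcc2, Abcc3 and Abcc5 and the carrier gene Slco4a1. The falls were in Slc22a5, Slc22a8, Slc22a17, Slc22a18, Slc22a25, Slco1a4, Slco2a1, Slc13a2 and the pump gene Abcc6. The 3 water and 3 bromate values did not overlap in 7 members with higher bromate values (19.6% of all genes tested did so). They did not overlap in 14 members with lower ones (21.5% of all genes tested did so). The 14 include Slco1a4, whose lack of overlap is no support for that count either. The median difference of the 33 members was -0.30, beside -0.02 over all genes tested. In bulk tissue, fewer cells of a type and less RNA per cell cannot be told apart. The calls of 6 members (Abcb1b, Abcc2, Abcc3, Slco4a1, Slc22a5 and Slc22a17) held in all 18 alternative settings of the fit, and the other 8 calls were lost in at least 1. The 18 do not count a gene's other probes, and among these 6 the other probe of Slco4a1 was not called. Slide as a block and leaving out water replicate 1 are counted apart but gave the same values. Without water replicate 2, 3 members fell (1.93% of all genes tested). Without water replicate 3, 4 did (2.68% of all genes), and without bromate replicate 2, 4 did (2.17% of all genes). Slco1a4 was among the 4 each time.

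**Figure D1:**
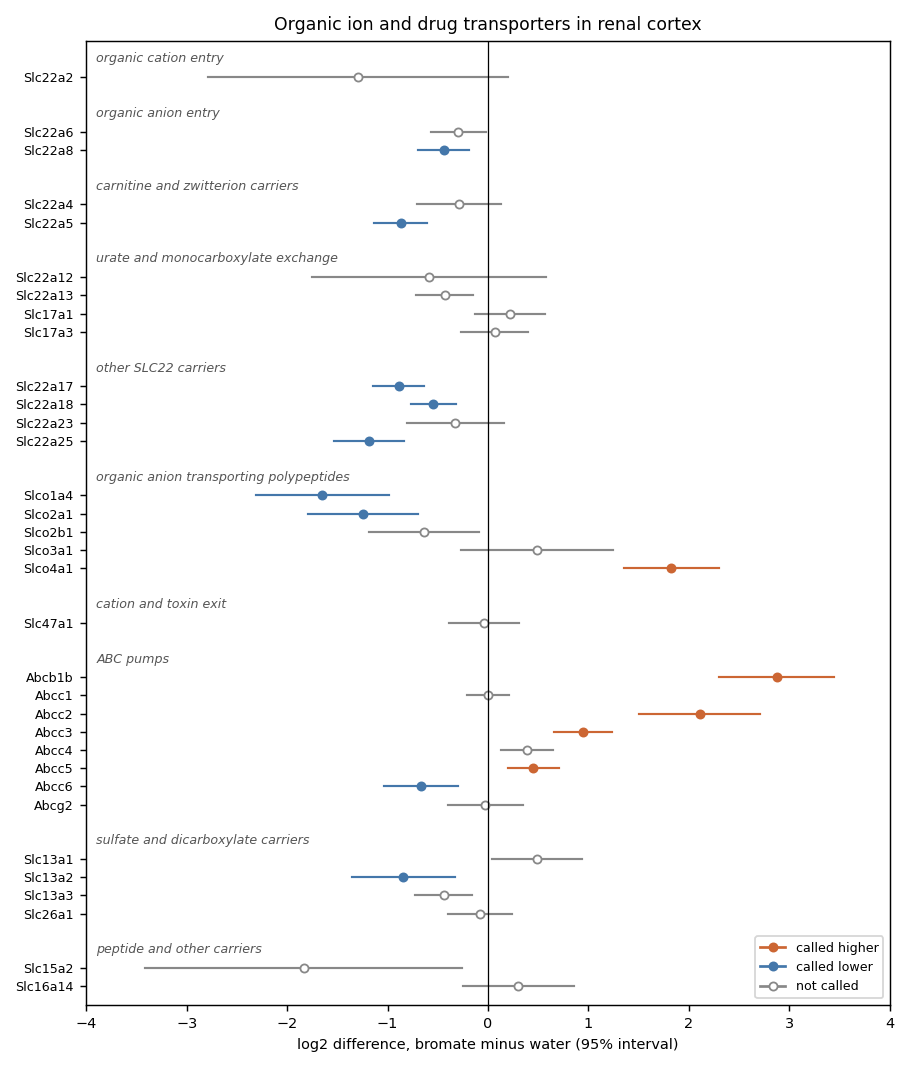
Log2 difference (bromate minus water, x axis) of the 33 measured transporters by role; points are limma estimates from 3 arrays per group and bars are 95% intervals. Orange points are the 5 members called higher, blue points the 9 called lower and open points the 19 not called.

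The promoter of Abcc2 is shown because it was the one promoter of a called member that held the searched motif. RefSeq promoters (GRCr8, 250 bases before to 50 after the start site, 300 in all) were found for 32 of the 37 members and 12 of the 14 called ones. They were searched on both strands for TGACNNNGC, the core of the antioxidant response element bound by NRF2. In Abcc2 (chr1:252613625-252613924, plus strand) the motif, in capitals, begins at position 17, counted in bases from the start site.
Abcc2: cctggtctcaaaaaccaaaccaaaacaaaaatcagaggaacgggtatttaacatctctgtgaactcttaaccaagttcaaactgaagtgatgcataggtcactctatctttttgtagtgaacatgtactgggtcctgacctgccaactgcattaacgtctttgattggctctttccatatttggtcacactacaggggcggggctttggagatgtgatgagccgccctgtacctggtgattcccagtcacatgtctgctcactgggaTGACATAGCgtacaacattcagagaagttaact
The motif was in 1 of 3 promoters of members that rose, 0 of 9 of members that fell and 4 of 16 of members not called, beside 12.06% of all 33469 promoters. A match describes these letters in this window and is not evidence that a factor binds there.

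The main blood-side carriers of organic anions and cations were lower or not called. Slc22a8 encodes OAT3, which takes up organic anions such as antibiotics and conjugated steroids. Its levels were 7.54, 7.68 and 7.73 under water and 7.20, 7.09 and 7.34 under bromate. All 3 bromate values lay below all 3 water values, within a narrow span, and Slc22a8 fell 1.36-fold (-0.44 ± 0.10, adjusted p = 0.0410). This call was lost in 11 of the 18 settings, among them leaving out any array but water replicate 1, and its other probe was not called (-0.38, adjusted p = 0.102). Slc22a6 encodes OAT1, the classic transporter of para-aminohippurate. Its levels were 8.16, 8.21 and 8.15 under water and 8.09, 7.75 and 7.79 under bromate. Bromate replicate 1 lay just under the water values and the other bromate arrays further below. The difference was not called (-0.30 ± 0.11, adjusted p = 0.128). The 3 neighbouring genes Slc22a25, Slc22a8 and Slc22a6 follow each other in the RefSeq gene order, with no other protein-coding gene between them, and had differences of -1.19, -0.44 and -0.30.

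Slc22a2, which encodes OCT2 for cations such as metformin, spread widely among the water-treated rats. Its levels were 5.45, 4.04 and 2.91 under water and 3.03, 2.75 and 2.73 under bromate. Water replicate 3 lay among the bromate values, so the groups overlapped. The difference of -1.30 ± 0.61 was not called (adjusted p = 0.202, 95% interval -2.79 to 0.20). Its other probe gave -1.59. Without water replicate 1 the difference was -0.64 (adjusted p = 0.270). Slc22a3, the OCT3 gene and the neighbour of Slc22a2, was not well above background on the arrays of either group.

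Slc22a5 and Slc22a4 lie close together in the genome, with 1 protein-coding gene between them, and the first of them fell. Slc22a5 encodes OCTN2, which recovers carnitine from the filtrate. Its levels were 1.99, 2.25 and 2.29 under water and 1.31, 1.34 and 1.27 under bromate. The bromate values lay close together and below all water values. Slc22a5 fell 1.83-fold (-0.87 ± 0.11, adjusted p = 0.00810), and its other probe gave -0.85 (adjusted p = 0.00457). Slc22a4, which encodes the ergothioneine carrier OCTN1, was not called (-0.29 ± 0.17, adjusted p = 0.297), with overlapping groups. The log2 ratio of the Slc22a5 to the Slc22a4 probe within an array went from 1.34 ± 0.32 under water to 0.76 ± 0.25 under bromate (SD, n = 3).

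Of the 4 genes of urate and monocarboxylate exchange, 0 were called by limma, and 1 had an unadjusted p under 0.05 (Slc22a13). Slc22a12, which encodes the urate exchanger URAT1, had levels of 4.98, 4.06 and 3.91 under water and 4.65, 3.12 and 3.43 under bromate. The groups overlapped, with replicate 1 highest in each (-0.58 ± 0.48, adjusted p = 0.437). Slc22a13, which encodes a carrier of nicotinate and urate, was lower on every bromate array without passing the test (-0.43 ± 0.11, adjusted p = 0.0580). It was called with water replicate 1 left out and with a filter on all 6 arrays. The urine-side anion carrier genes Slc17a1 and Slc17a3, neighbours in the genome, had differences of 0.22 ± 0.14 and 0.07 ± 0.14 (adjusted p = 0.341 and 0.774).

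Among the other 4 SLC22 carriers, 3 fell, beside 7.59% of all genes tested. Slc22a25, an orphan carrier of the organic anion branch, had levels of 3.97, 3.91 and 3.82 under water and 2.45, 2.74 and 2.96 under bromate. The lowest water value was well above the highest bromate value. Slc22a25 fell 2.28-fold (-1.19 ± 0.14, adjusted p = 0.00797). Slc22a17 encodes a receptor for the iron-binding protein lipocalin 2. Its levels were 3.57, 3.34 and 3.31 under water and 2.57, 2.43 and 2.56 under bromate, with narrow groups far apart. Slc22a17 fell 1.85-fold (-0.89 ± 0.10, adjusted p = 0.00724). Slc22a18, an orphan carrier from an imprinted gene cluster, had levels of 6.80, 6.69 and 6.78 under water and 6.11, 6.20 and 6.34 under bromate. These groups did not overlap either. Slc22a18 fell 1.46-fold (-0.54 ± 0.09, adjusted p = 0.0197), and its other probe gave -0.70 (adjusted p = 0.0119). The Slc22a18 call was lost without water replicate 2, water replicate 3 or bromate replicate 2. The orphan carrier gene Slc22a23 was not called (-0.32 ± 0.20, adjusted p = 0.307).

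The organic anion transporting polypeptides, which carry steroid conjugates, thyroid hormones and prostaglandins, went both ways. Slco4a1, which encodes a thyroid hormone carrier, had levels of -2.16, -1.84 and -1.55 under water and 0.21, -0.06 and -0.24 under bromate. Every bromate value was far above every water value. Slco4a1 rose 3.54-fold (1.82 ± 0.19, adjusted p = 0.00563). Its other probe, well above background on 5 arrays, gave 0.91 and was not called (adjusted p = 0.0744). Slco2a1 encodes the prostaglandin transporter. Its levels were -1.56, -2.03 and -1.84 under water and -3.32, -3.22 and -2.62 under bromate. The bromate values were all lower and more spread, with replicate 3 nearest to the water values. Slco2a1 fell 2.37-fold (-1.24 ± 0.22, adjusted p = 0.0220), and this call was lost on leaving out water replicate 2 or 3 or bromate replicate 1 or 2.

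Slco1a4, which encodes a rat carrier of bile acids and digoxin, was dim throughout. Its levels were -3.94, -4.20 and -4.37 under water, where all 3 arrays were well above background. Under bromate they were -5.49, -5.57 and -6.40, where no array was. So only a bound holds: Slco1a4 was at least 1.58-fold lower under bromate. The bound rests on this probe alone, since the gene's other probes were well above background on 0 arrays. The adjusted p of 0.0176 by limma rests on bromate values that were not well above background. The fitted difference was -1.65, but -0.34 after normexp and quantile normalization (adjusted p = 0.0460), which is smaller than the bound. For such a bound, the mean level of the bright group was set against a floor for the dim group: on each array the lowest signal still called well above background, or the probe's own signal where higher, averaged over the 3 arrays. Without water replicate 2 the call was lost. Slco4c1, another member of the family, was not measured: its levels were -1.44, -4.88 and -6.08 under water and -5.01, -6.48 and -6.30 under bromate. It was well above background on 2 of 3 water arrays and 0 of 3 bromate arrays, with water replicate 1 standing far above the rest. Slco2b1, a carrier of steroid sulfates, was lower on every bromate array without passing the test (-0.64 ± 0.22, adjusted p = 0.111), and Slco3a1 was not called (0.49 ± 0.31, adjusted p = 0.322).

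On the urine side, the proton-coupled exchanger of organic cations was not called. Slc47a1, which encodes MATE1, had levels of 4.27, 4.12 and 4.18 under water and 4.40, 3.90 and 4.15 under bromate. Bromate values lay both above and below the water values, and the difference was -0.04 ± 0.14 (adjusted p = 0.861, 95% interval -0.39 to 0.31). This interval leaves room for changes of that size in either direction. Slc47a2, the MATE2 gene next to Slc47a1, was not well above background on the arrays of either group.

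**Figure D2:**
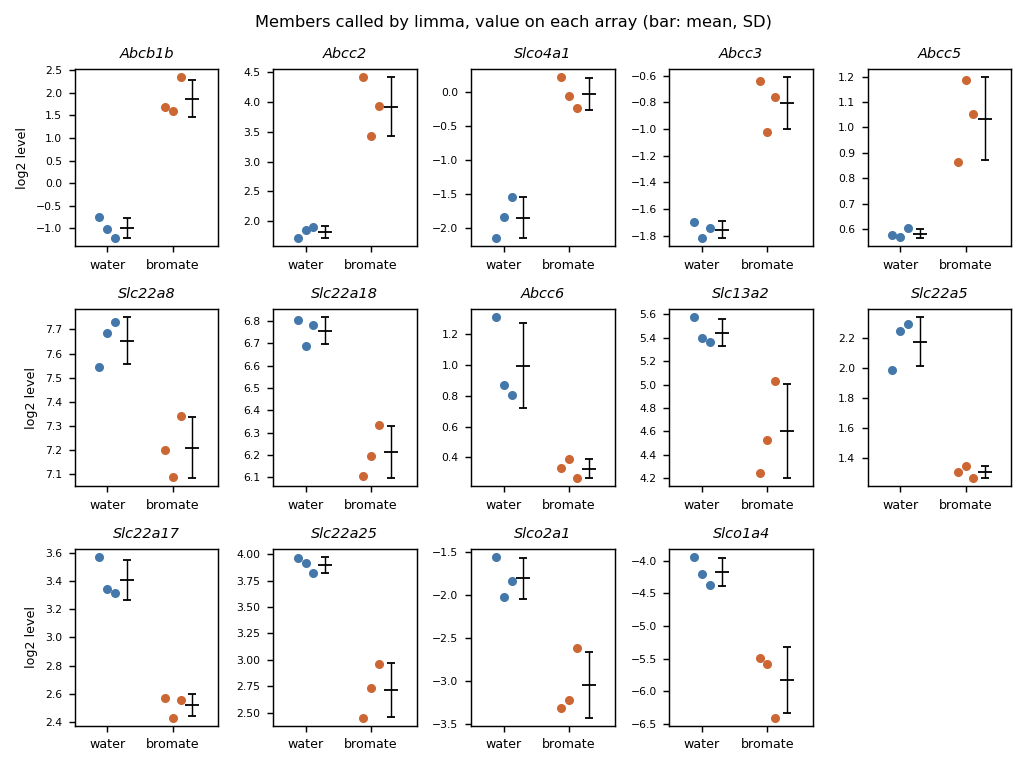
Log2 level (y axis, a separate scale in each panel) on each of the 6 arrays for the 14 called members; points are single arrays and bars mark the mean and SD of 3. The groups do not overlap in any of the 14 panels, which were picked by their calls (for Slco1a4 no bromate array was well above background). Over all genes tested, 19.6% did not overlap with bromate higher and 21.5% with bromate lower. Abcb1b went from a mean of -0.998 to 1.87.

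Of the 8 measured ABC pumps, which use ATP to export their substrates, 4 rose, 1 fell and 3 were not called, and their median difference was 0.42. Over all genes tested, 6.87% rose and 7.59% fell. Abcb1b encodes a rodent P-glycoprotein, an exporter of many hydrophobic drugs. Its levels were -0.76, -1.02 and -1.21 under water and 1.69, 1.59 and 2.34 under bromate. All bromate values were more than 2 log2 units above all water values. Abcb1b rose 7.32-fold (2.87 ± 0.23, adjusted p = 0.00275, 95% interval 2.30 to 3.44), the largest difference of the 33 members in either direction. Its other 2 probes gave 2.38 (adjusted p = 0.0120) and 4.45 (adjusted p = 0.00102), so its size depends on the probe. The neighbouring P-glycoprotein gene Abcb1a was not measured. Its levels were -5.35, -5.56 and -5.23 under water and -4.17, -4.72 and -4.47 under bromate, with 1 bromate array well above background. The 2 genes are close copies, and whether a probe also binds the other transcript was not tested.

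Abcc2 encodes MRP2, which exports glutathione and glucuronide conjugates into urine. Its levels were 1.71, 1.86 and 1.90 under water and 4.42, 3.43 and 3.93 under bromate. The water values were close together, and the bromate values were spread but all far higher. Abcc2 rose 4.31-fold (2.11 ± 0.25, adjusted p = 0.00731), and its promoter is the one printed above. Abcc3 encodes MRP3, a blood-side exporter of glucuronides. Its levels were -1.70, -1.82 and -1.74 under water and -0.64, -1.02 and -0.76 under bromate, with no overlap. Abcc3 rose 1.93-fold (0.95 ± 0.12, adjusted p = 0.00915), and its other 2 probes gave 0.94 and 0.89, both called (adjusted p = 0.00532 and 0.00778).

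Abcc5 encodes MRP5, an exporter of cyclic nucleotides. Its levels were 0.58, 0.57 and 0.60 under water and 0.87, 1.19 and 1.05 under bromate. The bromate values were all higher, by a small margin. Abcc5 rose 1.37-fold (0.45 ± 0.10, adjusted p = 0.0400). The call was lost on leaving out any array but bromate replicate 1, and the other probe was not called (0.24, adjusted p = 0.0830). Abcc6, the gene mutated in the mineralisation disorder pseudoxanthoma elasticum, went the other way. Its levels were 1.31, 0.86 and 0.80 under water and 0.33, 0.39 and 0.27 under bromate. Water replicate 1 was the highest and the bromate values were close together. Abcc6 fell 1.58-fold (-0.66 ± 0.15, adjusted p = 0.0388), a call that was lost on leaving out any array but water replicate 1.

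The remaining pumps were not called. Abcc4 encodes MRP4, the other main exporter of organic anions into urine. Its levels were 2.39, 2.46 and 2.60 under water and 2.99, 2.89 and 2.73 under bromate. The bromate values were all higher, but the smallest gap was narrow and the difference missed the threshold (0.39 ± 0.11, adjusted p = 0.0619). It passed with quantile normalization, alone or after normexp, and with an intensity trend and robust variance. Its other 3 probes gave 0.34, 0.26 and 0.31, none called. Abcg2 encodes BCRP, which exports urate and sulfate conjugates. Its levels were 3.82, 3.38 and 3.28 under water and 3.51, 3.44 and 3.45 under bromate, inside the water range (-0.03 ± 0.15, adjusted p = 0.923, 95% interval -0.40 to 0.35). Abcc1, the MRP1 gene, had a difference of -0.00 ± 0.09 (adjusted p = 0.995, 95% interval -0.21 to 0.21).

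**Figure D3:**
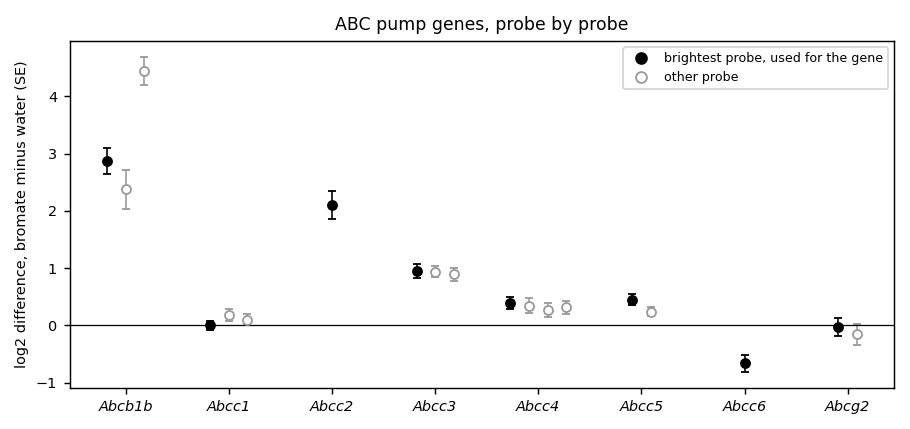
Log2 difference (bromate minus water, y axis) for every measured probe of the 8 ABC pump genes; bars are standard errors from limma with 3 arrays per group. The 3 probes of Abcb1b lie between 2.38 and 4.45, the 3 of Abcc3 between 0.89 and 0.95, and the 4 of Abcc4 between 0.26 and 0.39.

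The carriers of sulfate and dicarboxylates supply and recover the anions used in exchange. Slc13a2 encodes the urine-side citrate carrier NaDC1. Its levels were 5.58, 5.39 and 5.36 under water and 4.24, 4.53 and 5.03 under bromate. The bromate values were lower and ranged widely, with replicate 3 close to the water values. Slc13a2 fell 1.79-fold (-0.84 ± 0.21, adjusted p = 0.0491), just inside the threshold. Its other 2 probes gave -0.82 and -0.35, both called (adjusted p = 0.0494 and 0.0336), but the call of the gene was lost on leaving out any array but bromate replicate 3. Slc13a3 encodes NaDC3, the blood-side carrier that supplies dicarboxylates to OAT1 and OAT3. Its levels were 8.66, 8.65 and 8.54 under water and 8.37, 8.004 and 8.15 under bromate. The groups did not overlap, and the difference missed the threshold (-0.44 ± 0.12, adjusted p = 0.0569). It passed without bromate replicate 1, with a filter on all 6 arrays and with an intensity trend and robust variance. The sulfate carrier gene Slc13a1 was higher on every bromate array (0.49 ± 0.18, adjusted p = 0.128, not called), and the sulfate and oxalate exchanger gene Slc26a1 had a difference of -0.08 ± 0.13 (adjusted p = 0.718).

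Slc15a2, which encodes the peptide carrier PEPT2 that also recovers some antibiotics, varied widely in both groups and was not called. Its levels were 1.54, -0.15 and -0.73 under water and -2.23, -1.69 and -0.93 under bromate. The bromate values were all lower, but water replicate 3 and bromate replicate 3 nearly met. The difference was -1.84 ± 0.64 (adjusted p = 0.110), and -1.18 without water replicate 1 (adjusted p = 0.132). Slc16a14, an orphan member of the monocarboxylate carriers, was not called (0.30 ± 0.22, adjusted p = 0.394), and its other probe had the opposite sign (-0.20).

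Slc22a2, Slc15a2 and Slc22a12 varied widely among the water-treated rats themselves. Over the 3 water arrays the level of Slc22a2 ranged over 2.53, that of Slc15a2 over 2.27 and that of Slc22a12 over 1.07. The other measured members ranged over 0.85 or less, and 7.82% of all genes tested ranged over more than 1. In Slc22a2, Slc15a2 and Slc22a12 alike, water replicate 1 was highest and water replicate 3 lowest. Other members had this order over smaller ranges, among them Abcb1b, Abcc6, Slc22a17 and Slc17a3, so it is not particular to these genes. The mean level of a list of 10 markers of the straight proximal tubule had it too. That mean was 4.88, 3.83 and 3.29 under water and 3.27, 2.65 and 3.45 under bromate. By limma 0 of the 10 markers were called (4 were lower at an unadjusted p under 0.05). The widest water ranges were those of Slc22a7 (5.90, well above background on 2 of 3 arrays in each group) and Slc7a13 (5.07), which weigh most in the mean. Slc7a9 (5.53, 5.57 and 5.70 under water), Napsa and Acy3 did not follow its order, and the remaining markers did. Slco4c1, too dim to be measured, also had its highest value on water replicate 1, as did the family member Slco1a1 (3.53, 1.15 and -2.51 under water). Water replicate 1 is alone on its slide and in its scan, so slide, scan and animal cannot be told apart. In a fit with the marker mean of the straight tubule added as a covariate, an alternative chosen after seeing the data, 4 members rose (Abcb1b, Abcc2, Abcc3 and Slco4a1) and 2 fell (Slc22a5 and Slc22a17), beside 1.88% and 1.75% of all genes tested.

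**Figure D4:**
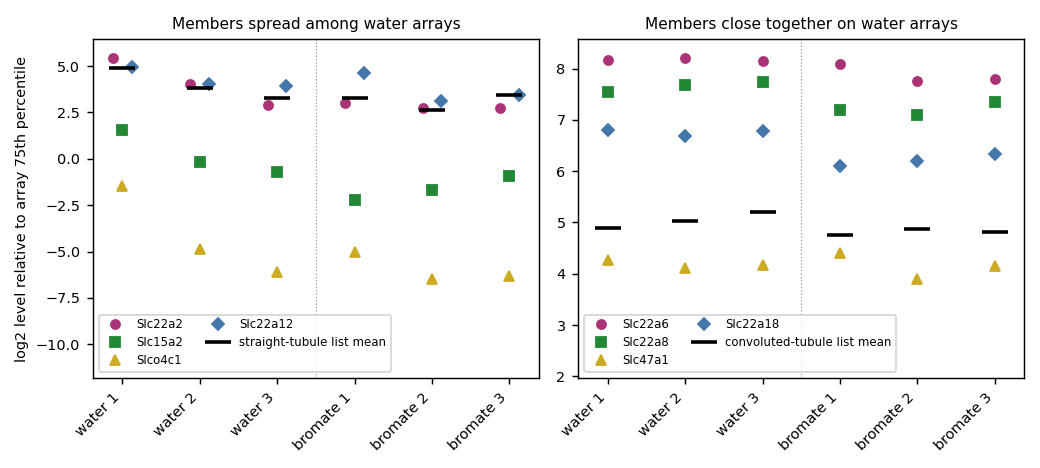
Log2 level (y axis) of single transporters on each of the 6 arrays (x axis), with black bars for the mean of 10 straight-tubule markers (left) or 12 convoluted-tubule markers (right). On the left Slc22a2 lies between 5.45 and 2.91 on the water arrays and Slco4c1, dim on most arrays, between -1.44 and -6.08; on the right Slc22a6 stays between 8.15 and 8.21 there.

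Related transporters were set against each other within each array, since such a ratio does not depend on how arrays are scaled. Of 10 planned pairs, 6 had both genes measured, and an exact two-sided permutation test of 3 against 3 cannot go below p = 0.1 (0.15 adjusted over the 6 pairs). The log2 ratio of the Abcc4 to the Abcc2 probe was 0.69, 0.61 and 0.70 under water and -1.43, -0.54 and -1.20 under bromate. The groups were far apart, with a difference of -1.72 (exact permutation p = 0.1). The ratio of Abcc3 to Abcc1 was higher by 0.95, that of Slc13a3 to Slc13a1 had a difference of -0.93 and that of Slc22a5 to Slc22a4 of -0.58, each without overlap (exact permutation p = 0.1). The ratios of Slc22a8 to Slc22a6 and of Slc17a3 to Slc17a1 overlapped between groups, with differences of -0.15 in both (exact permutation p = 0.4). A ratio of this kind shows unequal change between 2 probes, not which of them changed.

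**Figure D5:**
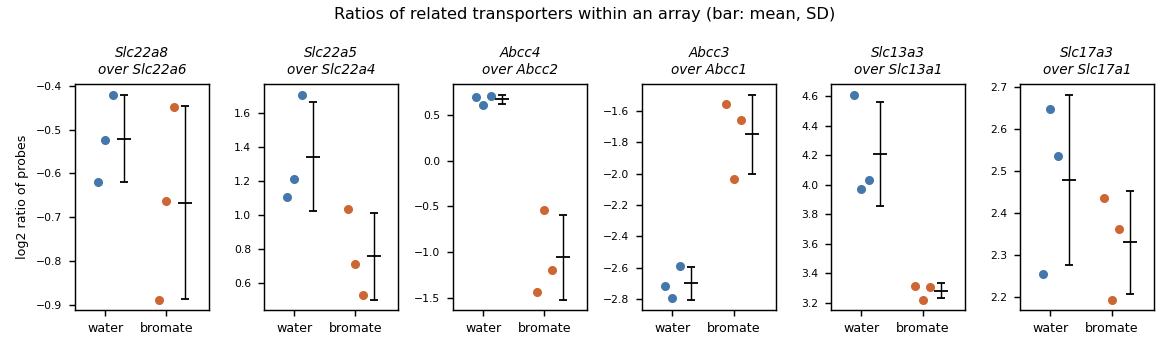
Log2 ratio of 2 related probes within an array (y axis, a separate scale in each panel) for 6 pairs; points are single arrays and bars mark the mean and SD of 3. Water and bromate arrays do not overlap for 4 pairs, with Abcc4 over Abcc2 going from a mean of 0.67 to -1.05, and overlap for Slc22a8 over Slc22a6 and Slc17a3 over Slc17a1.

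Other genes of the same pathway were counted from separate lists, beside 6.87% of all genes tested that rose and 7.59% that fell. Of 40 further transporters of these families, 24 were measured, 0 rose and 1 fell by limma (1 and 4 at an unadjusted p under 0.05), with a median of -0.33. The one that fell was Slc16a7, which encodes the monocarboxylate carrier MCT2. Its levels were 1.42, 1.60 and 1.75 under water and -0.03, 0.10 and 0.15 under bromate (-1.51 ± 0.11, adjusted p = 0.00249). The groups were narrow and far apart. Of 15 scaffolds and regulators of the transporters, 12 were measured, 0 rose and 2 fell (1 and 2 at an unadjusted p under 0.05 by limma), with a median of -0.19. They were Hnf4a (-0.70 ± 0.09, adjusted p = 0.0105), which encodes a transcription factor of proximal tubule genes, and Pdzk1 (-0.66 ± 0.10, adjusted p = 0.0136), whose protein anchors carriers at the urine side. Nfe2l2, which encodes NRF2, was higher on every bromate array and not called (0.36 ± 0.10, adjusted p = 0.0571). Of 5 genes of the sodium pump that drives the exchange, 0 rose and 1 fell by limma (0 and 2 at an unadjusted p under 0.05), namely Fxyd2 (-0.68 ± 0.08, adjusted p = 0.00693).

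Several lists of cell type markers also held called genes, and the lists differed in direction and size. Each count below stands beside 6.87% of all genes tested that rose and 7.59% that fell. A straight-tubule covariate was tried after seeing the data, and the part of cell types in the results was not tested. All 12 convoluted proximal tubule markers were measured, of which 1 rose and 4 fell, and the list's mean level ranged from 4.89 to 5.20 under water and from 4.76 to 4.86 under bromate. Of 8 tubule injury genes 4 rose and all 8 were higher at an unadjusted p under 0.05 by limma, with a mean of 0.56 to 0.98 under water and 3.21 to 4.06 under bromate. Of 7 measured distal markers (thick ascending limb and distal convoluted tubule) 6 fell (mean 3.56 to 3.67, then 1.32 to 1.55), and of 9 collecting duct markers 5 fell (mean 3.90 to 4.24, then 2.66 to 2.87). Of 5 podocyte markers 1 fell, with means of 0.81 to 1.16 and then 0.65 to 0.85. Of 6 endothelial markers 1 fell, with means of 1.48 to 1.77 and then 1.27 to 1.46. Of 6 macrophage markers 0 were called by limma (1 was higher at an unadjusted p under 0.05), with means of 1.15 to 1.31 and then 0.85 to 1.78. The mean level of the 33 transporters was 2.28 to 2.50 under water and 2.17 to 2.29 under bromate.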

How the data were processed

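Total RNA of the renal cortex carried the dye Cy3 on single-colour Agilent arrays, per the labels' protocols. The submitters' processing notes name Agilent Feature Extraction 10.7. The deposited scanner files hold a background-subtracted and detrended signal intensity per spot, annotated on build rn4, per the file headers. The values that the authors deposited separately hold a linear ratio whose scale, centring and direction the labels do not state. Each column matched the processed signal over that array's 75th percentile within 0.261% to 0.466% for probes above background on all arrays, with the direction of the signal and no centring by gene. Column medians were 0.1043, 0.1049 and 0.103 for water and 0.1025, 0.1054 and 0.1026 for bromate. The sources used here do not give its software.

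Control and outlier spots were left out, the log2 intensity was reduced by each array's 75th percentile, and probes well above background on at least 3 of 6 arrays were kept (37781). Probes were named by accession through RefSeq's gene list (28206 of 61537 probes had 1 symbol); the brightest probe stood for a symbol, and probes without one were grouped by accession, giving 27506 genes. The groups were compared in R 4.3.3 by limma 3.58.1 (lmFit, eBayes), the files being read with version 1.17.8 of data.table, after tests on simulated data. No genome was used, and sequences come from the RefSeq promoter table.

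The members, lists, roles, pairs and motif were chosen with earlier results of these data known. Every measured member is named, and values on each array are given for called members, the largest difference of each role and 10 transporters chosen for their role. In the other lists, called genes were counted and up to 4 named. A planned list entry and a planned motif are not reported here. Replicate numbers are shared between groups, but deviations of same-numbered arrays correlated at 0.05, 0.07 and -0.10, so they were not taken as pairs.

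Alternatives were quantile normalization alone or after normexp (offset 50), the percentile over probes above background on all arrays, the deposited ratios, no filter on dim probes, a filter requiring all 6 arrays, keeping outlier spots, averaging the probes of a gene, each other probe by itself, an intensity trend with robust variance, slide and replicate number as blocks, and each array left out. A straight-tubule covariate was added after seeing the data.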

Additional observations from a re-analysis of the deposited data

How the results depend on the processing

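No called member changed direction under any of the 18 settings. The count of members that rose was 4 to 6 throughout, from 5. The count that fell, from 9, was 4 without the filter on dim probes and 3 with the replicate block, Slco1a4 among them each time. It was 2 with the straight-tubule covariate added after seeing the data, and 3 to 9 with 1 array left out. It was 10 with a filter on all 6 arrays (8.94% of all genes) and 10 with an intensity trend and robust variance (9.15%). In the other settings it was 7 to 9. The covariate moved the median member difference from -0.30 to -0.20. The replicate block, for which the numbers gave no sign of a paired design, left 4 members that rose, and over all genes 585 that rose and 535 that fell, against 1891 and 2088. Over all genes, 750 rose and 694 fell without the filter, and 517 and 480 with the covariate. Leaving out arrays gave 594 to 1495 and 530 to 1835. Of the 19 members not called, 16 were not called in any setting, and Slc22a13, Abcc4 and Slc13a3 passed in 3 settings each. The cause of these shifts was not tested, beyond the smaller number of arrays where 1 is left out. A slide block leaves water replicate 1 out of the comparison: 4 members then rose and 9 fell. With 3 arrays per group, and with 4 members too dim to measure, smaller differences could not be detected.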
